A study of Mus musculus with 32 samples.

Results

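The genes of the proteasome subunits were followed through every RNA pool of the study. A gene was taken where a probe set of the array was annotated to 1 gene symbol made of Psma, Psmb, Psmc, Psmd, Psme or Psmf and a number, and each gene was represented by its probe set of highest mean over the 24 arrays that were not immunoprecipitates. This gave 45 genes of 18193 with a probe set of 1 symbol. Of the 45, 42 passed the filter on low values, a log2 signal above 5.52, the median of all values, on at least 8 of the 32 arrays. The 3 that did not were Psma8 (testis form of an alpha subunit), Psmb8 (interferon-inducible catalytic subunit) and Psmb11 (thymus catalytic subunit), whose values over the 32 arrays ran from 3.86 to 5.26, from 4.62 to 6.28 and from 4.13 to 5.66. A pair of the 42, Psmc3ip (a meiotic recombination factor) and Psme3ip1 (a partner of the activator PA28γ), carry the letters of the rule but are no subunits, which left 43 subunits, activators, inhibitors and assembly factors on the array. Psme2, the partner of Psme1, shares its only probe set here with Psme2b and was not counted.

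The 26S proteasome is the protease that degrades ubiquitinated proteins in the cytosol and the nucleus. Its 20S core is a barrel of alpha rings, which form the gate, around beta rings, which hold the catalytic sites, and the 19S cap uses a ring of ATPases (Psmc genes) and a set of non-ATPase subunits (Psmd genes) to bind ubiquitin chains, remove them and feed the substrate into the core. Inducible beta subunits replace the constitutive catalytic ones after interferon, and activators of the Psme family can take the place of the cap. Because the subunits are needed in fixed ratio, their genes are known to be transcribed together, in large part through the factors NFE2L1 and NFE2L2.

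The arrays compared NMuMG, a normal mouse mammary gland epithelial line that undergoes an epithelial-mesenchymal transition with TGFβ, with E1KD, a derivative of it in which an shRNA silences hnRNP E1, an RNA-binding translational repressor encoded by Pcbp1. Both lines were left untreated or given TGFβ2 at 5 ng/ml, and RNA was hybridized after 24 h from whole cells (total RNA), from the monosomal pool of a sucrose gradient (the ribosomal subunits and single ribosomes, taken as non-translating) and from the polysomal pool (taken as translating). RNA bound by an hnRNP E1 antibody or by IgG was hybridized from NMuMG cells with and without TGFβ. Each of the 16 groups held 2 samples that the labels call biological replicates. E1KD is a single stable knockdown line, so the comparison of the lines is one of that line with its parent, and p-values measure the spread between such replicates only. The labels of the hnRNP E1 immunoprecipitates disagree over which of 2 arrays was treated. Groups here follow the titles, which number these arrays 13 or 14 with 1 of each number in either group, while the descriptions give treatment to both arrays numbered 14. The data go against the titles. Fn1 (fibronectin), which rose with TGFβ in NMuMG total RNA from 9.61 and 9.67 to 11.49 and 11.49, had 9.34 in the array labelled untreated replicate 1 and 9.60 in that labelled treated replicate 2, both numbered 13, against 7.56 and 7.31 in those numbered 14. The IgG arrays had 8.18 and 8.02 untreated and 9.29 and 9.34 treated. Krt19, an epithelial keratin that fell with TGFβ in total RNA, had 11.96 and 12.16 in the arrays numbered 13 and 13.57 and 13.68 in those numbered 14. Each group by title thus held 1 array of either kind, and by these genes it was the arrays numbered 13, not 14, that resembled treated cells.

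The knockdown was visible in the target. In total RNA, Pcbp1 had log2 signals of 13.08 and 13.12 in untreated and 13.14 and 13.14 in TGFβ-treated NMuMG cells, against 10.79 and 10.86 in untreated and 9.55 and 9.33 in treated E1KD cells. Replicates correlated with r from 0.974 to 0.998, and array medians lay between 5.36 and 5.70. The epithelial keratins Krt8 and Krt18 were above 14 on the log2 scale in every group of total RNA. Further epithelial markers differed between the lines. Krt7 had 11.09 and 11.18 in untreated NMuMG, 8.51 and 8.53 in untreated and 5.16 and 4.96 in treated E1KD. Ocln had 9.45 and 9.48 in untreated NMuMG and 6.43 and 6.30 in untreated E1KD. Cldn4 went the other way, with 5.76 and 5.90 against 6.33 and 6.60. The markers of endothelium (Pecam1, Cdh5) and adipocytes (Adipoq) did not pass the filter. Of the 3 leukocyte markers Ptprc did not pass, but Cd68 and Cd3e did, and Cd68 had 6.67 and 6.48 in untreated NMuMG against 8.21 and 8.41 in untreated E1KD total RNA. The summed signal of the 9 epithelial markers was 15.70 and 15.72 in untreated NMuMG and 15.49 and 15.50 in untreated E1KD total RNA, that of the 6 mesenchymal markers 14.17 to 14.20 and 14.89 to 14.92, and that of the 3 leukocyte markers, 7.12 to 7.37 and 8.44 to 8.62. The epithelial sum, taken on the linear scale, is mostly Krt8 and Krt18. The part of these markers in the differences between the lines below was not tested. In 1 group the RNA itself stood apart: the 3′ minus the 5′ signal of the Gapdh control probe sets was 0.45 and 0.51 in the untreated NMuMG monosomal pool and at most 0.23 on any other array, while the same measure for Actb was 0.66 and 0.69 there and 0.39 to 0.81 on the others.

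The promoters of the members were searched for the core of the antioxidant response element, which NFE2L1 and NFE2L2 bind (TGACNNNGC, N being any base), and for the CCAAT box of NF-Y, on both strands, in RefSeq windows of 250 bases before to 50 after the start site (GRCm38.p6). Of the members, 38 matched a window, with 41 windows in all. The core was found in 6 of these (14.6%, against 12.4% of all 32851 windows), and CCAAT in 16 (39%, against 37.4%), so the members held either motif about as often as all windows did. The 6 matches are shown with up to 10 bases on either side, the core in capitals, 5′ to 3′ on the strand that carries it because catalytic beta subunits, the ATPase ring, the cap, an activator and an assembly factor are all among them. They lie at chr14:54618024-54618052 (minus strand, Psmb5), chr11:70525338-70525366 (plus strand, Psmb6), chr14:45329587-45329615 (minus strand, Psmc6), chr11:107479278-107479299 (minus strand, Psmd12), chr5:123228149-123228177 (plus strand, Psmd9) and chr11:30771758-30771786 (minus strand, Psme4).
Psmb5: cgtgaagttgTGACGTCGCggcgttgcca
Psmb6: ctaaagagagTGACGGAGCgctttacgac
Psmc6: gagcaatgccTGACTTAGCtactggctgg
Psmd12: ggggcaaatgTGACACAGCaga
Psmd9: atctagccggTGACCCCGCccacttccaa
Psme4: gctcttctggTGACGCTGCagccgcagcg

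TGFβ moved the proteasome genes of NMuMG total RNA little, but mostly upward. The difference was above 0 for 36 of 42 members, against 6385 of all 12590 genes tested. Over the 42 members the median difference, TGFβ minus untreated, was 0.12 on the log2 scale, against 0.01 over all 12590 genes tested, and the members ranged from -0.27 to 0.37. In limma, 6 of the 42 members and 2070 of the 12590 genes had an unadjusted p under 0.05. With Benjamini-Hochberg adjustment over all kept probe sets, 1 member rose at an adjusted p under 0.05 (background 3.46% of all genes) and none fell (background 2.95%). The one was Psmd8 (probe set 1423296_at), a 19S lid subunit, with 11.87 and 11.87 in untreated and 12.25 and 12.23 in treated cells, a difference of 0.37 ± 0.10 (SE; adjusted p = 0.0484). The replicates lay close together on either side, but the adjusted p stood near the threshold, and the call was lost when any 1 of the 4 arrays was left out. Of the 33 other genes of the pathway that were measured, Tapbp, which helps load peptides onto MHC class I, rose by 0.55 ± 0.13 (adjusted p = 0.0166).

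In E1KD cells the same treatment raised many of them. As in NMuMG, 36 of 42 members lay above 0. Of the 42 members, 15 rose in total RNA (35.7%, background 11.7%) and 1 fell (2.38%, background 11.4%), and the median difference was 0.28 against -0.03 over all genes. The alpha ring moved most evenly: 6 of its 7 measured subunits rose, and the 7 differences lay between 0.33 and 0.62. Only 1 of 7 constitutive beta subunits passed the test, Psmb3 (a non-catalytic beta subunit, 0.28), with the others between -0.06 and 0.47. In the cap, 2 of 6 ATPases and 5 of 11 non-ATPase subunits rose. In bulk RNA, more RNA per cell and more cells of one kind cannot be told apart. With this treatment the summed leukocyte markers of E1KD went from 8.44 to 8.62 down to 7.46 to 7.52, the epithelial ones from 15.49 to 15.50 up to 15.66 to 15.67, and the 3′ minus 5′ signal of Actb from 0.59 to 0.61 down to 0.39 to 0.47. The epithelial sum followed Krt8, which went from 14.14 and 14.13 to 14.38 and 14.37, while Krt7 fell from 8.51 and 8.53 to 5.16 and 4.96. The part of these measures in the result was not tested.

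The largest rises, those of Psmd7 and Psmc4, belonged to the 19S cap. Psmd7 (1451056_at), the lid subunit that pairs with the deubiquitinase Psmd14, had 10.90 and 10.83 in untreated and 11.80 and 11.71 in treated E1KD cells, a difference of 0.89 ± 0.24 (1.85-fold, adjusted p = 0.0141). Psmc4 (1416290_a_at), an ATPase of the ring, had 11.26 and 11.45 against 12.04 and 12.27, a difference of 0.80 ± 0.13 (1.74-fold, adjusted p = 3.99e-04). Psmd10, the assembly chaperone gankyrin, rose by 0.65 ± 0.15 from 9.76 and 9.86 to 10.48 and 10.43. Psma1, an alpha subunit, and Psmd1, a scaffold subunit of the base, each rose by 0.62 (SE 0.16 and 0.10). In all 5 the treated arrays lay above the untreated ones without overlap. The exception was Psme1 (1417056_at), the alpha subunit of the interferon-inducible activator PA28, with 9.10 and 9.23 in untreated and 8.68 and 8.73 in treated cells, a difference of -0.46 ± 0.15 (adjusted p = 0.0428).

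**Figure D1:**
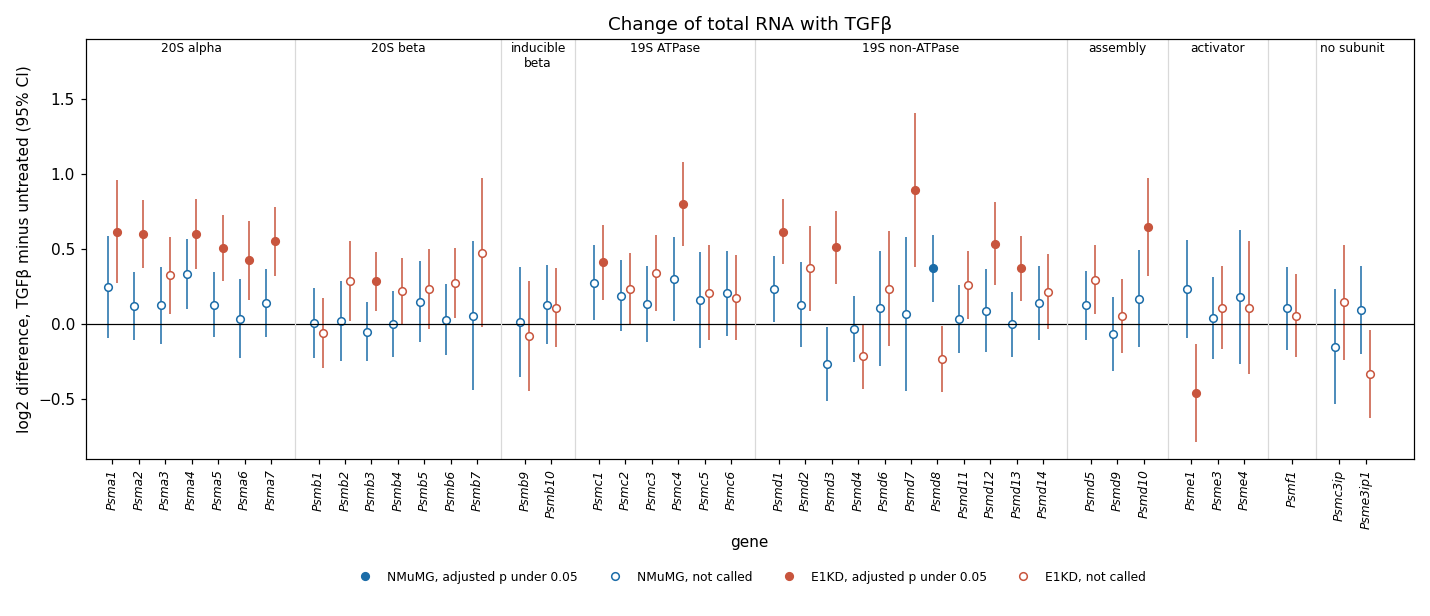
Difference of total RNA with TGFβ for the 42 members, in log2 units with 95% confidence intervals, in NMuMG (blue) and E1KD (red); filled points passed an adjusted p of 0.05, and genes are grouped by role, with Psmf1 in the unlabelled column. The E1KD points of the alpha subunits lie between 0.33 and 0.62, and Psme1 at -0.46 is the 1 filled point below 0.

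Beside the subunits, 2 of the 33 other pathway genes rose (background 11.7%) and 4 fell (background 11.4%) in E1KD total RNA. Nfe2l1, which encodes the factor that drives proteasome genes when the protease is short, had 11.43 and 11.57 in untreated and 10.49 and 10.50 in treated cells, a difference of -1.01 ± 0.10 (adjusted p = 1.75e-06), the largest fall of this list. Nfyc, a subunit of NF-Y, rose by 0.65 ± 0.10, and Ubqln2, a shuttle receptor that carries ubiquitinated proteins to the proteasome, by 0.58 ± 0.13. The count of members that rose depended on scaling and on single arrays. Scaled to Actb and Gapdh, which moved the median of all probe sets from -0.01 to -0.13, it was 11 higher and 4 lower. After quantile normalization it was 17 higher and 4 lower. Without any 1 of the 4 arrays, between 7 and 10 members passed the test in all (7 without untreated replicate 1, 10 without untreated replicate 2 or treated replicate 1, 9 without treated replicate 2), all of them higher.

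Whether TGFβ acted differently on the lines was tested directly, as the change in E1KD minus that in NMuMG. Psmd3, a subunit of the 19S lid, showed the largest difference that was called, 0.78 ± 0.16 (adjusted p = 0.00479): it had 10.54 and 10.58 in untreated and 10.24 and 10.35 in treated NMuMG cells, but 10.26 and 10.22 in untreated and 10.79 and 10.71 in treated E1KD cells. Psma2, an alpha subunit, differed by 0.48 ± 0.15 (adjusted p = 0.0488), Psmd8 by -0.60 ± 0.15 (adjusted p = 0.0133) and Psme1 by -0.69 ± 0.22 (adjusted p = 0.0497). In all, 2 members were higher (background 6.33%) and 2 lower (background 6.84%), so most members that rose in E1KD and not in NMuMG were not shown to differ between them. Psmd7, at 0.82 ± 0.34, was not called. The median of this difference was 0.21 over the members and -0.03 over all genes. The split was 5 higher and 3 lower after quantile normalization and 1 higher and 2 lower when centred on Actb and Gapdh. It was 12 higher and 3 lower in a fit to the total RNA arrays alone, and 1 or 2 members passed without any 1 of the 8 arrays. Nfe2l1 (-1.06 ± 0.14), Nfyc (0.97 ± 0.14) and Tapbp (-0.74 ± 0.18) also differed.

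**Figure D2:**
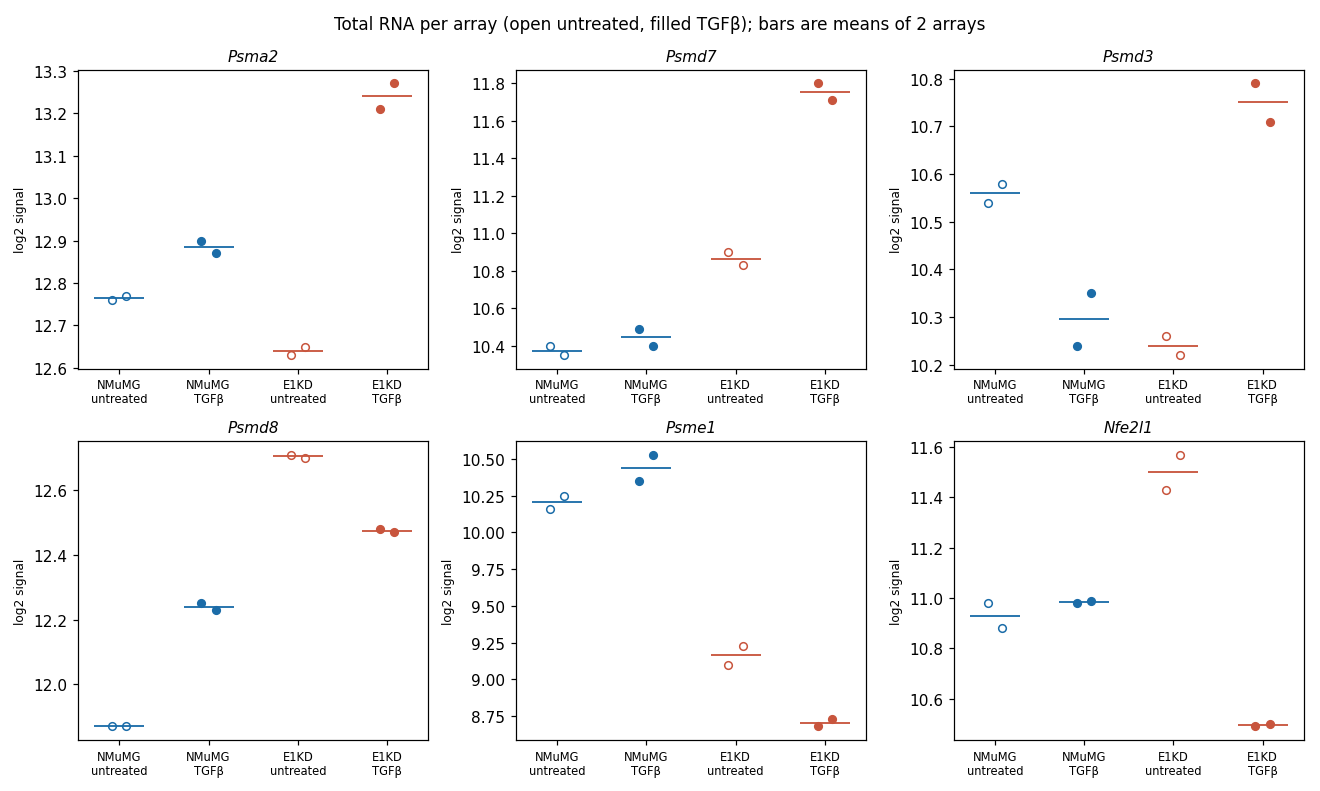
Log2 signal of total RNA on each array (points) with the mean of 2 arrays (bars) for 5 members and Nfe2l1, in NMuMG (blue) and E1KD (red), untreated (open) and TGFβ-treated (filled). Psmd7 is highest in treated E1KD cells (11.80 and 11.71), and Psme1 lowest there (8.68 and 8.73).

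Between the untreated lines, 6 members were higher in E1KD (14.3%, background 17.8%) and 4 lower (9.52%, background 15.1%), shares near or below those of all genes. Psme1 had 10.16 and 10.25 in NMuMG and 9.10 and 9.23 in E1KD, a difference of -1.04 ± 0.15 (2.06-fold, adjusted p = 6.78e-05). Psmd8 was higher in E1KD by 0.83 ± 0.10, Psme3ip1 by 0.81 ± 0.14, the ATPase Psmc1 by 0.71 ± 0.12 and Psme3, the nuclear activator PA28γ, by 0.53 ± 0.13. Psma7, an alpha subunit, was lower by 0.52, and Psma5 (-0.34) and Psmd3 (-0.32) were lower as well. Over the alternatives tried, the call was kept in 14 of 14 for Psma7, but in 8 for Psma5 and 7 for Psmd3. The PA28 genes went opposite ways: the cytosolic Psme1 was lower and the nuclear Psme3 higher. Scaled to Actb and Gapdh the split was 10 higher and 2 lower. It was 13 higher and 6 lower after quantile normalization and 12 higher and 6 lower in a fit to these 4 arrays alone, and 6 or 7 members passed without any 1 of the 4 arrays (6 without NMuMG replicate 2 or either E1KD replicate).

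In the treated lines, 17 members were higher in E1KD (40.5%, background 15.8%) and 1 lower (2.38%, background 14.6%). The cap made up most of them, with 8 of 11 non-ATPase subunits and 2 of 6 ATPases higher. Psmd7 had 10.49 and 10.40 in treated NMuMG and 11.80 and 11.71 in treated E1KD cells, a difference of 1.31 ± 0.24 (2.48-fold, adjusted p = 6.17e-04). Psmc1 differed by 0.84 ± 0.12, Psmd6 by 0.64 ± 0.18 and Psmd13 by 0.62 ± 0.10, all subunits of the cap. Psme1 was again the 1 member below, with 10.35 and 10.53 against 8.68 and 8.73, a difference of -1.74 ± 0.15 (3.33-fold, adjusted p = 3.26e-07). Without any 1 of the 4 arrays the number that passed was between 6 and 11: it was 6 without NMuMG replicate 1, 11 without NMuMG replicate 2 and 10 without either E1KD replicate. Of the 33 other pathway genes, 5 were higher (background 15.8%) and 7 lower (background 14.6%) in E1KD under TGFβ. Without it, 5 were higher (background 17.8%) and 5 lower (background 15.1%). Among them were Ubqln1, a shuttle factor (0.73 ± 0.13, untreated), Nfe2l1 (0.57 ± 0.10, untreated) and Nfya, a further NF-Y subunit (-0.78 ± 0.21 untreated and -0.96 ± 0.21 treated).

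The inducible catalytic subunits changed little in total RNA. Psmb10, which replaces Psmb7 in the immunoproteasome, had values from 8.61 to 9.06 over the 8 total RNA arrays, and its differences in the 4 comparisons of lines or treatments lay between 0.11 and 0.33, none called. Psmb9, which replaces Psmb6, lay below the filter threshold of 5.52 on all 8 of these arrays, at 4.98 to 5.43. It exceeded 5.52 on 13 of the 32 arrays, none of them of total RNA, and so passed the filter. Psmb8, which replaces Psmb5, did not pass it. Of the constitutive partners, Psmb5, Psmb6 and Psmb7 were not called in any of these 4 comparisons either, with Psmb7 at 0.47 ± 0.23 in E1KD with TGFβ. The error of Psmb7 includes its pools, with 8.51 and 9.52 in the untreated NMuMG polysomal pool. In treated E1KD total RNA its replicates were 10.70 and 10.66.

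The polysomal and monosomal pools showed far larger differences than total RNA. In the deposited values, normalized by RMA, a difference of pools is relative to the other RNAs of each pool. It does not give the share of a transcript in a pool. In untreated NMuMG cells, 30 of 42 members were lower in the polysomal than in the monosomal pool (71.4%, background 43.9%) and 4 higher (9.52%, background 30.5%), with a median difference of -0.92 against -0.17 over all genes. All 6 ATPases, 9 of 11 non-ATPase subunits and 6 of 7 alpha subunits were lower. Psmd7 had 10.55 and 10.61 in the monosomal and 7.92 and 7.05 in the polysomal pool, a difference of -3.10 ± 0.24 (8.54-fold, adjusted p = 1.83e-08). A second, dimmer probe set of Psmd7 went the other way (1.43), and the mean over both was -0.83. Psmc1 (1416005_at) had 9.98 and 10.01 against 7.13 and 7.0 (-2.93 ± 0.12), Psmd12, a lid scaffold subunit, 11.39 and 11.49 against 8.84 and 8.56 (-2.74 ± 0.13), and Psmd6, a further lid subunit, 11.57 and 11.47 against 9.15 and 8.78 (-2.56 ± 0.18). The polysomal values of these 4 genes lay more than 2 log2 units below the monosomal ones on every array.

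The 4 that were higher in the polysomal pool of these cells were no part of the cap. They were Psmb1, a beta subunit without a catalytic site (0.72 ± 0.11), Psmf1, which encodes the proteasome inhibitor PI31 (0.54 ± 0.13), Psme1 (0.49 ± 0.15) and Psmb10 (0.44 ± 0.12). For Psmf1 a pair of other probe sets fell (-1.21 and -1.10), and the mean over its kept probe sets was -0.54, so the direction of Psmf1 rests on the choice of probe set. Centring each array on its median gave 12 higher and 26 lower, because it moved the median over all probe sets from -0.13 to 0.34.

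After TGFβ the distribution in NMuMG cells was even: 16 members were higher (38.1%, background 29.4%) and 13 lower in the polysomal pool (31%, background 25.9%), with a median of -0.03 and a median over all genes of 0. Psmd1 now had 8.76 and 8.60 in the monosomal and 10.18 and 10.17 in the polysomal pool (1.49 ± 0.10). The recombination factor Psmc3ip (1.41), the ATPase Psmc6 (1.30 ± 0.13) and Psmd10 (1.30 ± 0.15) were also among the highest. At the other end stood Psmd3 (-1.96 ± 0.11), the catalytic subunits Psmb5 (-1.93 ± 0.13) and Psmb6 (-1.49 ± 0.11) and the lid subunit Psmd13 (-1.48 ± 0.10; a dimmer probe set of Psmd13 rose by 0.77). The split was 20 higher and 10 lower when centred on Actb and Gapdh and 14 higher and 18 lower when centred on the array median. A fit to these 4 arrays alone gave 7 higher and 9 lower.

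The polysome shift, the polysomal minus monosomal difference with TGFβ minus that without, put these together. In NMuMG cells 24 of 42 members had a positive shift (57.1%, background 41.3%) and 12 a negative one (28.6%, background 33.9%), with a median of 1.13 against 0.04 over all genes. Centring each array on its median gave 21 positive and 18 negative and lowered both medians, to 0.58 over the members and -0.47 over all probe sets. The groups of subunits differed in their counts. Of the alpha subunits 6 of 7 were positive and none negative, and of the ATPases 4 of 6 were positive and none negative. Of the constitutive beta subunits, 1 of 7 was positive (Psmb7, 1.15 ± 0.33) and 4 were negative. The non-ATPase subunits of the cap were split, 7 positive and 3 negative, and so were the assembly factors and the activators, each with 2 positive and 1 negative.

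**Figure D3:**
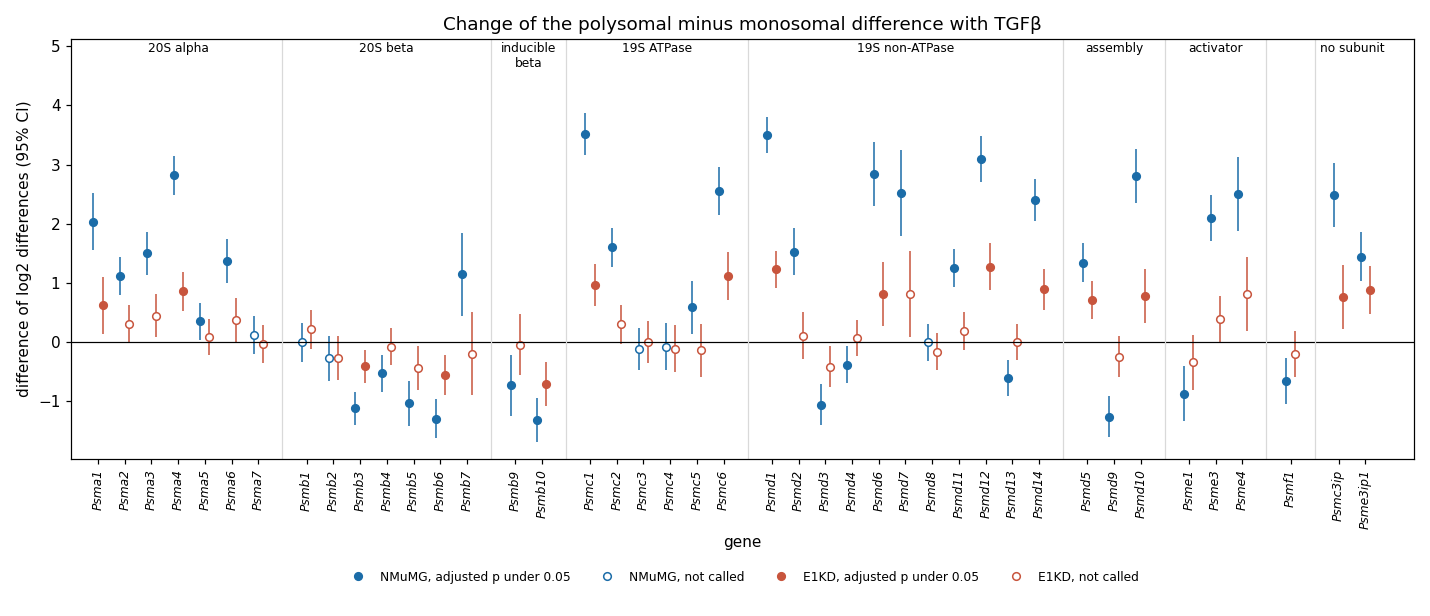
Polysome shift of the 42 members in log2 units with 95% confidence intervals, in NMuMG (blue) and E1KD (red); filled points passed an adjusted p of 0.05, and genes are grouped by role, with Psmf1 in the unlabelled column. The NMuMG points reach 3.52 for Psmc1 and fall to -1.32 for Psmb10, and the E1KD points lie between -0.71 and 1.27.

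The largest positive shifts in NMuMG were those of Psmc1 (3.52 ± 0.17, 11.4-fold), Psmd1 (1429291_at; 3.50 ± 0.15, 11.3-fold), Psmd12 (3.09 ± 0.18) and Psmd6 (2.83 ± 0.26), all cap subunits, with adjusted p from 1.52e-10 to 9.89e-08. For Psmd1 the monosomal pool went from 10.86 and 10.88 to 8.76 and 8.60 and the polysomal pool from 8.91 and 8.83 to 10.18 and 10.17. The pool with the higher normalized signal thus changed. The activators Psme3 (2.09 ± 0.18) and Psme4, which encodes PA200 (2.50 ± 0.29), moved the same way, and so did Psmc3ip (2.48 ± 0.25), which is no subunit.

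The largest negative shifts were those of Psmb10 (1448632_at; -1.32 ± 0.18), Psmb6 (1448822_at; -1.29 ± 0.16), Psmd9, an assembly chaperone of the base (-1.26 ± 0.16), and Psmb3 (-1.11 ± 0.13). For Psmb6 the monosomal pool went from 12.21 and 12.26 to 13.32 and 13.57, while the polysomal pool, at 12.18 and 11.90 before and 11.96 and 11.95 after, overlapped. Of the catalytic subunits, Psmb5 (-1.03 ± 0.18), Psmb6, Psmb9 (-0.73 ± 0.25) and Psmb10 were negative and Psmb7 was positive. Constitutive and inducible partners were thus both negative only for Psmb6 and Psmb9. Psmb9 lay near the filter threshold of 5.52, with values from 4.98 to 6.16 over the 32 arrays. Psmb8, the partner of Psmb5, did not pass the filter, and Psmb7, the partner of Psmb10, went the other way. The untreated polysomal arrays of Psmb7 stood apart from each other (8.51 and 9.52), and its call was lost after quantile normalization (0.59, adjusted p = 0.145 in limma). Psme1 (-0.87 ± 0.22) and Psmf1 (-0.66 ± 0.18) were negative, the latter with the probe set above and positive (0.86) as a mean of its probe sets. Psmd11, a lid subunit, was positive (1.25), with a dimmer probe set at -1.78.

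**Figure D4:**
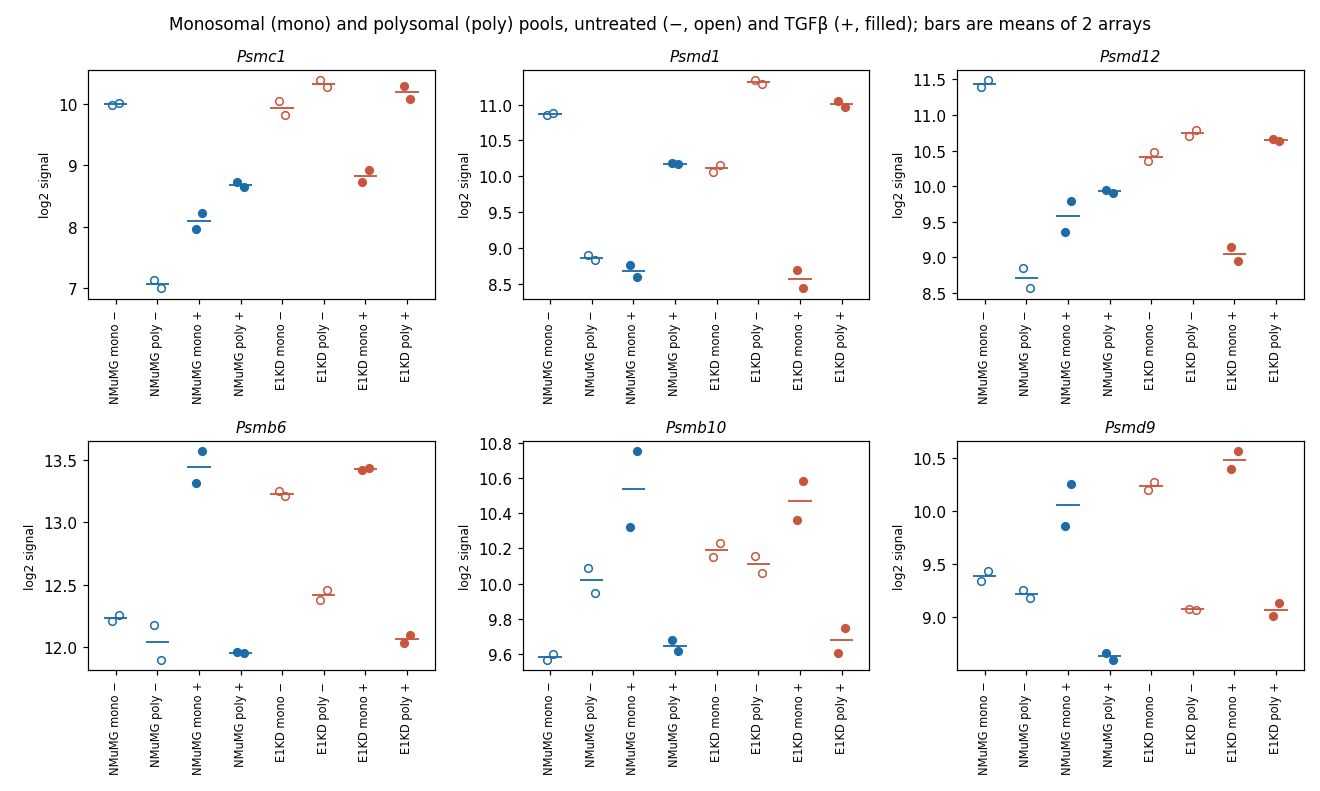
Log2 signal on each array (points) with the mean of 2 arrays (bars) in the monosomal and polysomal pools of NMuMG (blue) and E1KD (red), untreated (open) and TGFβ-treated (filled), for 3 cap subunits (top) and 2 beta subunits and an assembly factor (bottom). In untreated NMuMG, Psmd1 has its higher signal in the monosomal pool (10.86 and 10.88, against 8.91 and 8.83 in the polysomal pool). With TGFβ it has its higher signal in the polysomal pool (10.18 and 10.17, against 8.76 and 8.60 in the monosomal pool).

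Each pool was also compared on its own. In the NMuMG monosomal pool TGFβ lowered 23 members (54.8%, background 42%) and raised 11 (26.2%, background 37.5%), and in the polysomal pool it raised 17 (40.5%, background 20.4%) and lowered 6 (14.3%, background 13.3%). All 17 that rose in the polysomal pool fell in the monosomal one. Another 5 (Psmb10, Psmd3, Psmd9, Psmd13 and Psme1) rose in the monosomal and fell in the polysomal pool, and no member was called in the same direction in both. These joint counts cover the members only. Without the share over all genes they do not show a pattern particular to the members. Among the 17, Psmd11 had a dimmer probe set that went the other way in both pools (1.075 in the monosomal and -0.705 in the polysomal pool). A dimmer probe set of Psmd7 rose in the monosomal pool (0.665). In the polysomal pool, which does not use the untreated monosomal arrays whose Gapdh ends stood apart, Psmc1 rose by 1.62 ± 0.12, Psmd1 by 1.30 ± 0.10, Psmd12 by 1.23 ± 0.13 and Psmd10 by 1.19 ± 0.15. In the monosomal pool Psmd1 (-2.19), Psme4 (-2.10), Psmd6 (-1.92) and Psmc1 (-1.89) fell most, and Psmb6 (1.21), Psmb3 (0.99), Psmb10 (0.95) and Psmb5 (0.94) rose most. The part of the Gapdh difference in the monosomal values was not tested. Centring on the array median gave 18 higher and 20 lower in the monosomal pool, and a fit to the 4 polysomal arrays alone gave 10 higher and none lower.

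In untreated E1KD cells 9 members were higher (21.4%, background 17%) and 11 lower (26.2%, background 22.2%) in the polysomal pool, near the shares of all genes. Psmd1 had its higher signal in the polysomal pool already without TGFβ, with 10.06 and 10.16 in the monosomal and 11.34 and 11.29 in the polysomal pool (1.21 ± 0.10). Psmb5 (-1.54 ± 0.13), Psmd3 (-1.23 ± 0.11), Psmd9 (-1.16 ± 0.12) and Psmb4, a non-catalytic beta subunit (-1.01 ± 0.10), were lowest. Quantile normalization gave 15 higher and 11 lower. With TGFβ, 20 members were higher (47.6%, background 34.8%) and 13 lower (31%, background 30.6%), led by Psmd1 (2.44 ± 0.10), Psmc6 (1.61 ± 0.13), Psmd12 (1.60 ± 0.13) and Psme4 (1.43 ± 0.21) at one end and Psmb5 (-1.98 ± 0.13), Psmd3 (-1.64 ± 0.11), Psmd9 (-1.41 ± 0.12) and Psmb6 (-1.36 ± 0.11) at the other. Centring on the array median gave 14 higher and 15 lower. All 6 alpha subunits that were called here were higher and 5 of 7 constitutive beta subunits lower.

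The polysome shift was smaller in E1KD cells. It was positive for 12 members (28.6%, background 23.2%) and negative for 3 (7.14%, background 9.44%), with a median of 0.15 against 0.07 over all genes. All 15 had a call in the same direction in NMuMG, a joint count that covers the members only. By sign alone, called or not, the shifts of the lines matched in 35 of 42 members and in 10356 of 12590 genes. In E1KD, Psmd12 (1.27 ± 0.18), Psmd1 (1.23 ± 0.15), Psmc6 (1.11 ± 0.19) and Psmc1 (0.96 ± 0.17) had the largest values. Psmb10 (-0.71 ± 0.18), Psmb6 (-0.56 ± 0.16) and Psmb3 (-0.41 ± 0.13) were the negative ones. The balance moved with the scaling: 9 were positive and 9 negative after quantile normalization, 17 and 1 when scaled to Actb and Gapdh, and 9 and 7 when centred on the median. Without replicate 2 of the untreated monosomal pool, 9 members passed in all. Across the 42 members the shifts of the lines, which share no arrays, correlated with r = 0.93 (Spearman's rho 0.93), against r = 0.76 over all 12590 genes; these points share probe affinity and gene sequence, and they are not independent.

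The difference of the shifts, E1KD minus NMuMG, was called for 26 members. It was negative for 21 (50%, background 24.7%) and positive for 5 (11.9%, background 15.3%), with a median of -0.68 against -0.08. All 21 had a positive shift in NMuMG, and all 5 a negative one, so the 21 were smaller and the 5 less negative in E1KD. Because the NMuMG shift is subtracted in this difference, such a match of signs is in part built in. No share over all genes is given for it. The differences were largest for Psmc1 (-2.56 ± 0.23), Psmd1 (-2.27 ± 0.21), Psmd10 (-2.03 ± 0.31) and Psmd6 (-2.02 ± 0.36), with adjusted p from 2.45e-06 to 5.57e-04. The positive ones were Psmd9 (1.01 ± 0.23), Psmb6 (0.74 ± 0.22), Psmb3 (0.70 ± 0.19), Psmd3 (0.64 ± 0.23) and Psmd13 (0.61). This contrast uses the untreated NMuMG monosomal arrays. Quantile normalization gave 10 positive and 19 negative and centring on the median 13 and 18.

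The other genes of the pathway ran alongside. In NMuMG, 22 of 33 had a positive shift (background 41.3%) and 6 a negative one (background 33.9%), with a median of 1.02. In E1KD 13 were positive (background 23.2%) and none negative (background 9.44%). There 19 had an unadjusted p under 0.05 in limma, a count given without the share over all genes. The largest in NMuMG were Nfyb (3.37 ± 0.26), Nfe2l2, which encodes the stress factor NRF2 (3.18 ± 0.21), and Uchl5, a deubiquitinase of the cap (2.99 ± 0.31). Nfe2l2 also had the largest value in E1KD (1.82 ± 0.21), followed by Uchl5 (1.2 ± 0.31) and Ecpas, a proteasome adaptor (1.11 ± 0.28). Psmg3, a chaperone of alpha ring assembly, differed most between the lines in the positive direction (1.77 ± 0.26) and Nfyb in the negative (-2.27 ± 0.37). Sem1, a small subunit of the cap with another name, had a shift of 1.38 in NMuMG.

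Binding to hnRNP E1 was compared as the immunoprecipitate with the hnRNP E1 antibody minus that with IgG, over both treatments, 4 arrays against 4. Of the members 13 were higher with hnRNP E1 (31%, background 15.9%) and 2 lower (4.76%, background 10.9%), with a median of 0.08 against 0.01 over all genes. The differences were small, and the cap held most of them: 4 of 6 ATPases and 6 of 11 non-ATPase subunits were higher, while none of 7 alpha subunits was called in limma (2 at an unadjusted p under 0.05; range -0.20 to 0.16). For Psmd11 (1437080_s_at) the hnRNP E1 arrays had 12.87, 12.71, 12.94 and 12.79 and the IgG arrays 12.36, 12.35, 12.38 and 12.28, a difference of 0.48 ± 0.08 (1.40-fold, adjusted p = 0.00589). For Psmc5, an ATPase, they had 12.07, 11.97, 12.01 and 12.18 against 11.61, 11.58, 11.56 and 11.62 (0.47 ± 0.08). The antibodies did not overlap in either gene. They did not overlap either in the 3′ minus 5′ signal of Gapdh, 0.05 to 0.23 with hnRNP E1 and -0.03 to 0.00 with IgG. That of Actb overlapped (0.39 to 0.64 and 0.43 to 0.53). The part of RNA ends in these differences was not tested.

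Psmd3 (0.47 ± 0.08) and Psmd5, an assembly chaperone of the base (0.47 ± 0.08), followed, then Psmd2, a scaffold subunit of the base (0.42), Psmd1 (0.39), Psmd4, the ubiquitin receptor Rpn10 (0.38), Psmc2 (0.37) and Psmc1 (0.35). Among the beta subunits, Psmb3 (0.31) and Psmb5 (0.26) were higher and Psmb1 lower (-0.25), and Psmd10 was lower (-0.34), while Psmd8, at -0.40 ± 0.12, was not called (adjusted p = 0.0506 in limma). Over the alternatives tried, the call was kept in 7 of 19 for Psmb5, 10 for Psmb1 and 13 for Psmd10. It was kept in 19 of 19 for Psmd11, Psmc5, Psmd3 and Psmd5. For comparison, Pcbp1 itself, the transcript of hnRNP E1, was higher by 0.31. Of the 33 other pathway genes, 6 were higher (background 15.9%) and 3 lower (background 10.9%), near the shares of all genes. Ubqln4, a shuttle factor (0.72 ± 0.11), and Vcp, which encodes the p97 unfoldase (0.57 ± 0.07), were at the top and Erap1, a peptide trimming enzyme (-0.58 ± 0.17), at the bottom. The count fell to 5 without either untreated IgG array and to 6 without either treated one, in each case all higher. Scaled to Actb and Gapdh it was 10 higher and 4 lower. Psmd13 (0.30) was higher, with a dimmer probe set of it lower (-0.36).

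**Figure D5:**
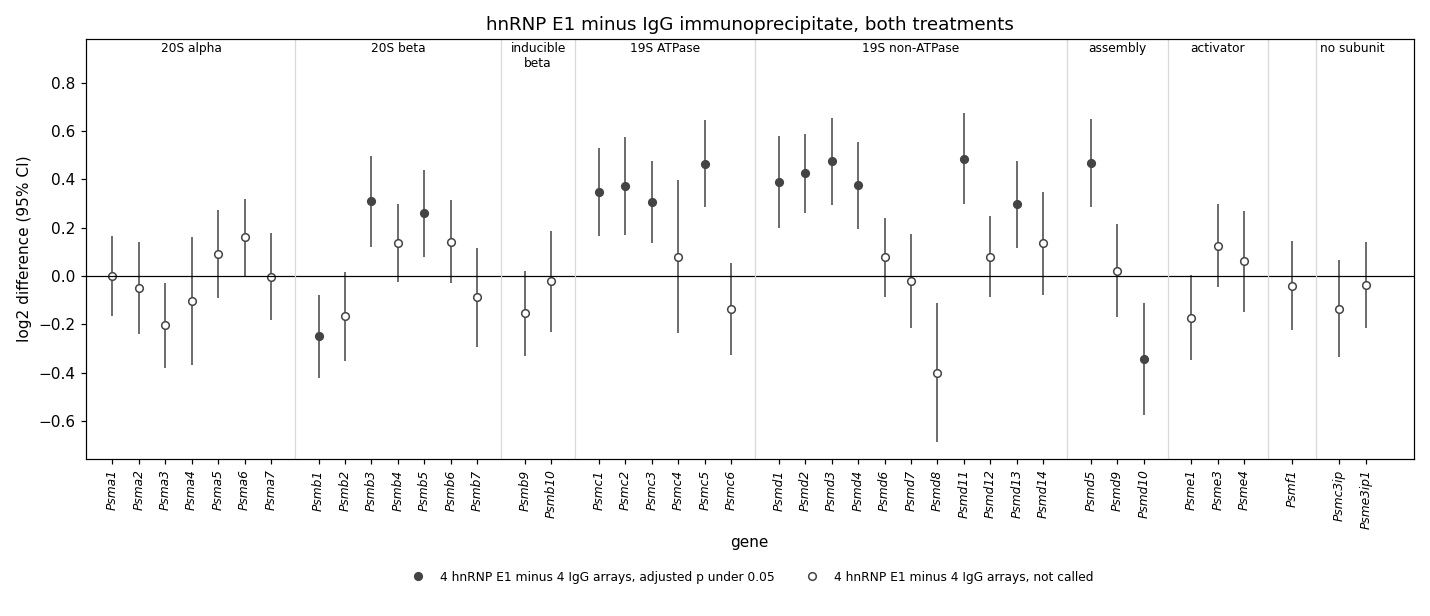
Difference of the 4 hnRNP E1 and 4 IgG immunoprecipitates for the 42 members, in log2 units with 95% confidence intervals; filled points passed an adjusted p of 0.05, and genes are grouped by role, with Psmf1 in the unlabelled column. Filled points above 0 are mostly those of the 19S cap, up to 0.48 for Psmd11.

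The effect of TGFβ on the hnRNP E1 immunoprecipitates could not be read from these arrays, because each group by title held 1 array numbered 13 and 1 numbered 14. By title the differences, TGFβ minus untreated, ran from -0.26 to 0.09, with none called in limma in either direction (background 0% higher and 0% lower) and none at an unadjusted p under 0.05, and nothing about the treatment follows from this. Grouped by number, as 14 minus 13, the differences of the members ran from -0.35 to 0.19, with none called in limma and 4 at an unadjusted p under 0.05, while 7.47% of all genes were higher and 9% lower. In that grouping Fn1 was lower (-2.03 ± 0.13) and Krt19 higher (1.56 ± 0.10) in the arrays numbered 14, the opposite of their change with TGFβ in total RNA, so no direction of treatment is given for the members. With IgG, whose labels agree, the differences of the members ran from -0.11 to 0.29, and none was called in limma (background 0.00794% higher and 0% lower) or had an unadjusted p under 0.05. The comparison of hnRNP E1 with IgG uses the same 8 arrays under either grouping, and by number it called 13 members higher and 4 lower.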

How the data were processed

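RNA was hybridized to Affymetrix mouse expression arrays, 32 in 16 groups of 2. The deposited values are log2 signals that the authors made by RMA in Affymetrix Expression Console, for 45101 probe sets per array; arrays carry no read depth, and their number limits the precision. Gene symbols came from GEO's platform annotation: 34958 probe sets had 1 symbol, 932 several and 9211 none. Control probe sets (64) were left out, and 25432 probe sets passed the filter. The values were used as deposited. The 24 RNA arrays were fitted in one limma model (limma 3.58.1, R 4.3.3) with a mean per group (12 residual degrees of freedom), and the 8 immunoprecipitates in another (4 residual degrees of freedom). The error of a total RNA difference thus also holds the spread between replicates of the pools. Adjusted p-values are Benjamini-Hochberg values over the kept probe sets, a call is an adjusted p under 0.05, and the background counts 1 probe set per gene (12590 genes). Errors are standard errors of limma unless stated. The fit was tested on simulated data. Named in each comparison were up to 4 called members of largest difference in each direction, the constitutive and inducible catalytic subunits, the Psme genes, Psmf1 and Psmc3ip, and up to 3 called genes of the pathway list; further genes were chosen after their values were seen. The members and lists were chosen with earlier results of these data known. Of the pathway list, 33 of 42 genes were on probe sets of 1 symbol. Alternatives were no filter, quantile normalization, centring on Actb and Gapdh, one fit to 32 arrays, a fit to the compared arrays only, the replicate number as a block, the mean of a gene's probe sets, leaving out Psmc3ip, leaving out each array, the other assignment of the hnRNP E1 arrays and, chosen after seeing the data, leaving out Psme3ip1 too and centring on the array median.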

Additional observations from a re-analysis of the deposited data

Results flagged for a closer look

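The response to TGFβ differed between E1KD and NMuMG by a test of the difference itself for 4 of 42 members in total RNA (9.52%, against 13.2% of all genes) and for 26 in the polysome shift (61.9%, against 40% of all genes), at an adjusted p under 0.05 in limma. In total RNA these were Psmd3 (0.78), Psma2 (0.48), Psmd8 (-0.60) and Psme1 (-0.69), as E1KD minus NMuMG on the log2 scale. In the polysome shift the largest were Psmc1 (-2.56), Psmd1 (-2.27), Psmd10 (-2.03) and Psmd6 (-2.02) below 0 and Psmd9 (1.01), Psmb6 (0.74), Psmb3 (0.70) and Psmd3 (0.64) above. Over the alternatives tried, the call in total RNA was kept in 18 of 18 for Psmd3 and 17 for Psmd8, but in 7 for Psma2 and 9 for Psme1, and that of Psmd3 in the shift in 12 of 26 (adjusted p up to 0.108). With 2 arrays a group, single arrays could not be tested as outliers.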

How the results depend on the processing

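For the 17 counts of called members, 160 of 172 values under alternatives that kept all arrays stayed within 1.5 times the reported count, and of 1388 values of single genes 1315 kept their call, 70 lost it and 3 reversed. The 12 counts that moved were as follows. For TGFβ in NMuMG total RNA (1 member reported) the count was 0 without the filter, in 1 fit to all arrays and with the replicate block, and 2 after quantile normalization or in a fit to the compared arrays alone. For the difference of the total RNA response (4) it was 2 without the filter, 8 after quantile normalization and 15 with the compared arrays alone. For the untreated lines (10) it was 19 and 18 under the latter pair, for the pools of treated NMuMG (29) 16 and for the polysomal pool (23) 10 with the compared arrays alone. All 3 reversals were those of Psmf1 with the mean of its probe sets: -0.54 in untreated pools, 0.86 in the shift and -0.62 in the monosomal pool. The cause of these changes was not tested.

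Same-numbered replicates did not deviate together (21 of 66 pairs of conditions above 0.1), so the replicate block pairs by number only. With it the counts were 17 for E1KD total RNA, 0 for NMuMG total RNA, 36 for the NMuMG shift and 11 for the immunoprecipitates.

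Leaving out 1 array at a time gave 33 to 35 members for the untreated NMuMG pools, 26 to 30 for the treated ones, 14 to 16 and 26 to 27 for those of E1KD, 32 to 36 for the NMuMG shift, 9 to 14 for the E1KD shift, 22 to 33 for their difference, 30 to 34 and 17 to 19 for TGFβ in the monosomal and polysomal pools, 0 for TGFβ in NMuMG total RNA, 7 to 10 in E1KD, 1 to 2 for their difference, 6 to 7 and 6 to 11 for the lines without and with TGFβ, 5 to 16 for hnRNP E1 against IgG and 0 for TGFβ in either immunoprecipitate. The array left alone in its group is assumed to vary like the others.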
